A study of Mus musculus with 12 samples.

Results

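Enzymes that make, interconvert and inactivate steroid hormones were examined in the livers of WT and *Pctp*-/- mice. The 10 genes were chosen by name, as liver enzymes of androgen, estrogen and glucocorticoid metabolism, out of 35275 genes in the expression table, and all 10 were found there. The choice was made with earlier results of these data known. The genes were *Hsd3b2*, *Hsd3b3*, *Hsd3b5*, *Srd5a1*, *Akr1d1*, *Hsd17b2*, *Hsd17b6*, *Akr1c6*, *Hsd11b1* and *Cyp17a1*. Whole-liver RNA was sequenced from 12 mice in 4 groups of 3. The groups were WT mice on a chow diet, *Pctp*-/- mice on a chow diet, WT mice on the methionine- and choline-deficient (MCD) diet and *Pctp*-/- mice on the MCD diet. *Pctp* encodes phosphatidylcholine transfer protein (PC-TP), and the deletion was present in the whole body, so every tissue lacked it. The methods describe male mice, and the labels give neither the age nor the time on the diet. Expression is given as FPKM, which counts fragments per unit of gene length and of library depth. A level in FPKM can be compared between genes only as far as the gene lengths used hold, and these lengths are not given in the sources used here. The differences below are of log2 values after 1 FPKM was added to each level, so a change in a gene of low level comes out smaller than it was.

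The libraries held 30486576 to 55179468 uniquely mapped reads. The FPKM of *Pctp* was 1.21 to 7.90 in the WT libraries and 0.156 to 0.566 in the *Pctp*-/- libraries, and its groups did not overlap on either diet. The chow and MCD libraries also differed in read quality. Of the reads, 77.59 to 79.41% mapped uniquely in the chow libraries and 85.66 to 87.55% in the MCD libraries, and the share of bases at Q30 was 86.29 to 87.1% against 93.47 to 94.58%. The labels name no sequencing run or batch. Read quality went with the diet, so an effect of diet and an effect of a difference in sequencing cannot be told apart. The genotypes were compared within a diet, and whether their libraries were prepared or sequenced together is not given. In whole liver, a lower level can come from fewer cells of a type or from less RNA per cell, and these cannot be told apart either.

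Steroid hormones reach the liver from the adrenal glands and gonads and are converted there by enzymes that work on single positions of the steroid ring. The 3β-hydroxysteroid dehydrogenases act on the oxygen at the third carbon, the 5α- and 5β-reductases remove the double bond of the first ring, the 17β-hydroxysteroid dehydrogenases switch androgens and estrogens between potent and weak forms, and 11β-hydroxysteroid dehydrogenase type 1 turns inactive 11-keto glucocorticoids into active ones. Several of these genes are known to be expressed at different levels in male and female rodent liver, under the control of the pattern of growth hormone release.

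The 3 *Hsd3b* genes lie side by side on chromosome 3 of GRCm38, on the minus strand, within 144 kb. *Hsd3b5* (ENSMUSG00000038092) is at chr3:98618634-98630252, *Hsd3b2* (ENSMUSG00000063730) at chr3:98709255-98724543 and *Hsd3b3* (ENSMUSG00000062410) at chr3:98741523-98763127. Each codes for 373 amino acids in 1119 coding bases. How reads that match near-identical genes were counted is not given in the sources used here, so the first 90 coding bases of each are shown, from GENCODE M21 transcripts, with capitals at the 16 positions where the 3 genes are not all alike.
Hsd3b2: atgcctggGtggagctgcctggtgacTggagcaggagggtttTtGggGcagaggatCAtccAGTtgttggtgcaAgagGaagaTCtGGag
Hsd3b3: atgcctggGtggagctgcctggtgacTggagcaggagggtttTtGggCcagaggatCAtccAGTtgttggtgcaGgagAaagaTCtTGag
Hsd3b5: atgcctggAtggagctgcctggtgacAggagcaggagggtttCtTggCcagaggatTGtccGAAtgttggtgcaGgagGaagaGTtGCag
Over the whole coding sequence, *Hsd3b2* and *Hsd3b3* were identical at 95.1% of aligned bases, *Hsd3b2* and *Hsd3b5* at 80.4%, and *Hsd3b3* and *Hsd3b5* at 81.0%. Of all windows of 100 bases in the coding sequence, 19.5% of those of *Hsd3b2* and 19.8% of those of *Hsd3b3* occurred unchanged in a transcript of another gene, namely each other or *Hsd3b6*. For *Hsd3b5* the share was 11.1%, and the other genes were *Hsd3b4* and a pair of predicted genes. *Hsd3b4* and *Hsd3b6* were listed at 0 in every library, and *Hsd3b1*, the form of adrenal gland and gonads, reached at most 0.0274 FPKM. The levels of *Hsd3b2* and *Hsd3b3* are therefore uncertain where reads could fall on either. All exons of *Hsd3b3* together cover 6396 bases and its main transcript 1533, so its FPKM beside the other genes also depends on the length used. *Zfp697*, on the opposite strand, shares 228 of the 1533 bases of the main *Hsd3b3* transcript and had at most 0.562 FPKM.

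*Hsd3b5* and *Hsd3b2* were among the enzymes with the largest falls on the MCD diet, and *Hsd3b3* fell less. *Hsd3b5* codes for a 3-ketosteroid reductase known from male mouse liver. Its FPKM was 154, 238 and 109 in WT mice on chow and 10.9, 32.3 and 47.7 in WT mice on MCD. In *Pctp*-/- mice it was 141, 207 and 116 on chow and 53.5, 34.8 and 45.2 on MCD. Every MCD value lay below every chow value in both genotypes, and the lowest single value, 10.9, belonged to WT MCD replicate 1. On the log2 scale the change on MCD was -2.58 (SE 0.44, adjusted p = 0.00036) in WT and -1.75 (SE 0.44, adjusted p = 0.00551) in *Pctp*-/- mice. Without WT MCD replicate 1, the change in WT mice was -1.99.

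*Hsd3b2* and *Hsd3b3* code for the dehydrogenase and isomerase form of the enzyme. The FPKM of *Hsd3b2* was 75.8, 90.05 and 50.5 in WT and 45.8, 70.4 and 54.1 in *Pctp*-/- mice on chow. On MCD it was 10.1, 13.1 and 12.3 in WT and 13.95, 11.1 and 13.3 in *Pctp*-/- mice. The 6 MCD values spanned 10.1 to 13.95 and lay far below the lowest chow value of 45.8. The log2 fold change on MCD was -2.48 (SE 0.20, adjusted p = 1.4e-06) in WT and -2.05 (SE 0.20, adjusted p = 8.2e-06) in *Pctp*-/- mice. The FPKM of *Hsd3b3* was 25.6, 39.9 and 34.3 in WT and 34.7, 36.4 and 28.4 in *Pctp*-/- mice on chow, against 23.8, 22.0 and 23.5 and 23.0, 20.4 and 24.5 on MCD. Its lowest chow value, 25.6, was only just above its highest MCD value, 24.5. Its log2 fold change was -0.48 (SE 0.15, adjusted p = 0.0137) in WT and -0.53 (SE 0.15, adjusted p = 0.00999) in *Pctp*-/- mice. The call in WT mice was lost without WT chow replicate 2, where the adjusted p was 0.0673. Thus *Hsd3b2* had the second highest mean FPKM of the 3 on chow and the lowest on MCD, a ranking that depends on the gene lengths used.

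The makeup of the 3 *Hsd3b* genes was followed as the share of *Hsd3b5* in their summed FPKM. The share was 60.3, 64.7 and 56.2% in WT and 63.6, 66.0 and 58.4% in *Pctp*-/- mice on chow. On MCD it was 24.3, 47.9 and 57.1% in WT and 59.1, 52.5 and 54.4% in *Pctp*-/- mice. The value of 24.3% came from WT MCD replicate 1, while the 5 other MCD values lay between 47.9 and 59.1% and partly overlapped the chow values. Averaged over the genotypes, the share fell by 12.3 percentage points on MCD (two-sided exact permutation test within genotypes, p = 0.02, adjusted p = 0.024 over 6 such tests). It fell by 7.60 points without WT MCD replicate 1, and p was 0.055 and 0.065 without WT chow replicate 1 or 2. Between genotypes the share differed by 7.24 points (p = 0.165, exact permutation test within diets), with 2.53 points without WT MCD replicate 1 and 10.8 points (p = 0.04, exact permutation test) without WT MCD replicate 3.

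**Figure D1:**
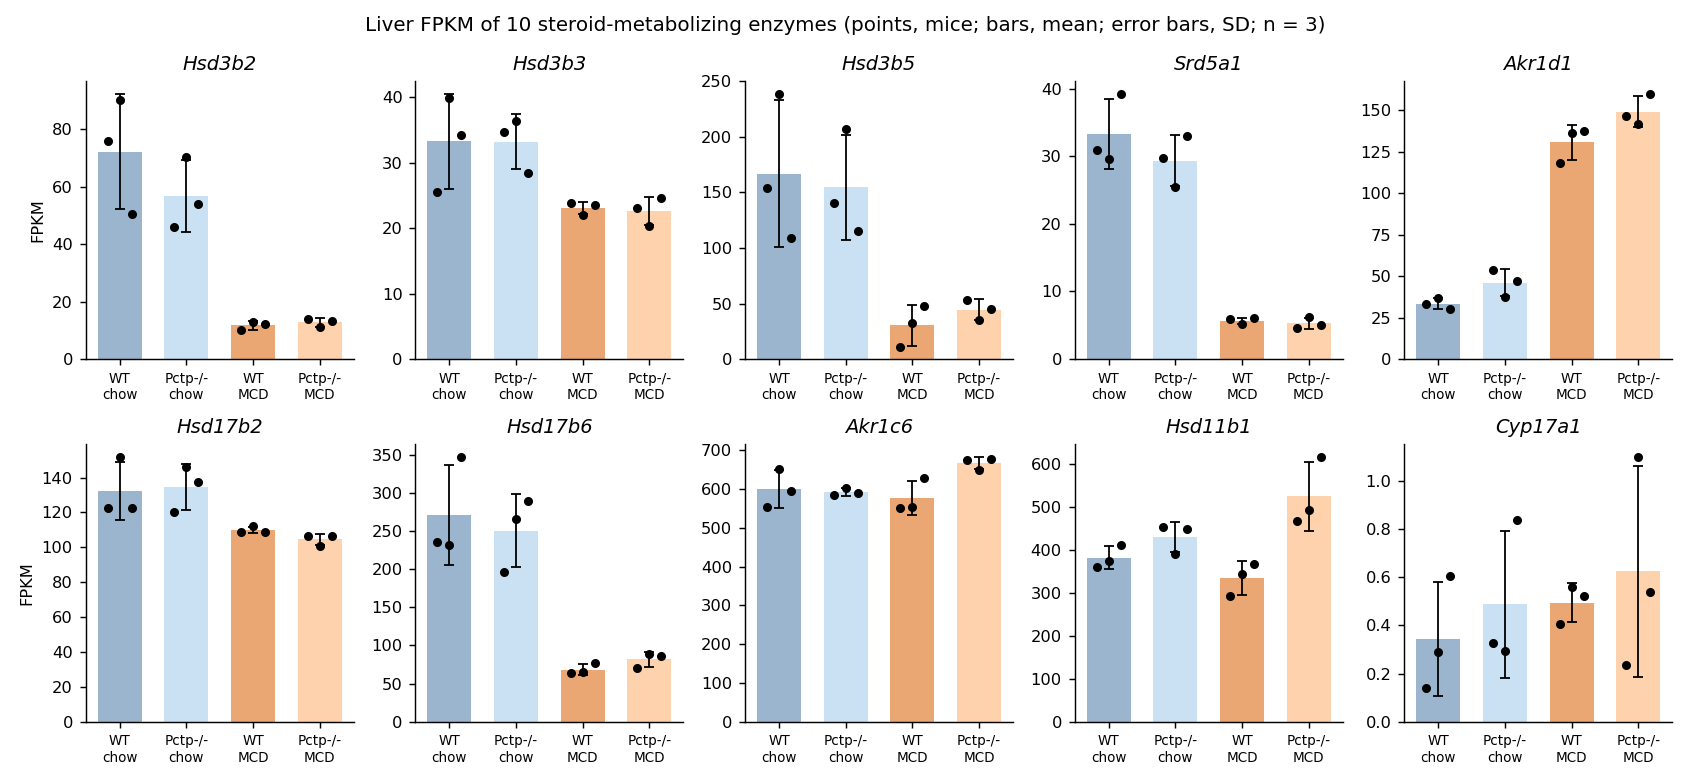
FPKM of the 10 enzymes in each of the 12 livers, by genotype and diet, with a separate linear axis from 0 for each gene. Points are mice, bars are group means and error bars are the SD of 3 mice. The MCD points of *Hsd3b2*, *Hsd3b5*, *Srd5a1* and *Hsd17b6* sit below all chow points, those of *Akr1d1* sit above, and *Hsd11b1* is highest in *Pctp*-/- mice on MCD.

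The steroid 5-reductases moved in opposite directions on the MCD diet. *Srd5a1* (ENSMUSG00000021594, chr13:69573449-69611442, minus strand) codes for 5α-reductase type 1, which makes dihydrotestosterone from testosterone and also reduces glucocorticoids. *Akr1d1* (ENSMUSG00000038641, chr6:37530173-37568815, plus strand) codes for the 5β-reductase, which acts on the same double bond and on intermediates of bile acid synthesis. The 250 bases before the RefSeq start of each gene in GRCm38.p6 are shown because these genes moved oppositely, with CpG dinucleotides in capitals and, for *Akr1d1*, also the letters TGACCT. The windows are chr13:69611464-69611713 on the minus strand for *Srd5a1* and chr6:37529923-37530172 on the plus strand for *Akr1d1*.
Srd5a1: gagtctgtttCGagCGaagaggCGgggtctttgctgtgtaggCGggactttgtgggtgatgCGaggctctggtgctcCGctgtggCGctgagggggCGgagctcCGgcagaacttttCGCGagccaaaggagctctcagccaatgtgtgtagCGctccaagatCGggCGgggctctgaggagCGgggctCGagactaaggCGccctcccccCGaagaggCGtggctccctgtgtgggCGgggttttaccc
Akr1d1: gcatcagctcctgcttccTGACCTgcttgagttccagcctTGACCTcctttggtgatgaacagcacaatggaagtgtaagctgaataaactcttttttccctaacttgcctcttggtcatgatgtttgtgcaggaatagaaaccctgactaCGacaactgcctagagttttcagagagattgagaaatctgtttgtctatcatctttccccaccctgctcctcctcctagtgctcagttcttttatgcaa
The *Srd5a1* window held 20 CpG dinucleotides and the *Akr1d1* window 1, where the median of 32851 distinct promoter windows was 6. Among the other enzymes with a RefSeq promoter, *Hsd11b1* had 6 and the rest 0 or 1. The RefSeq start lay 21715 bases from the GENCODE gene end given here for *Hsd11b1* and 15282 bases from that for *Hsd3b5*, so these windows are not at the ends of the intervals printed for those genes. TGACCT, the reverse complement of the short nuclear receptor site AGGTCA, occurred 227 to 232 and 205 to 210 bases before the *Akr1d1* start. It was in none of the other windows of these enzymes, and 14.02% of all windows held it on either strand. Of 6 other motifs searched on both strands, STAT5 (TTCNNNGAA, in 7.02% of all windows), HNF4A (CAAAGTCCA, 0.384%), the short HNF1 site (GTTAAT, 6.43%) and C/EBP (TTGCNNCAA, 1.74%) matched in no window of the 8 enzymes. The short glucocorticoid receptor site (TGTTCT, 16.1%) matched once, in *Hsd3b2*, and the TATA box (TATAAA, 12.4%) once, in *Akr1c6*. No motif overlapped another.

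*Srd5a1* had 30.9, 29.7 and 39.2 FPKM in WT and 29.7, 25.4 and 33.0 FPKM in *Pctp*-/- mice on chow. On MCD it had 5.87, 5.17 and 6.02 FPKM in WT and 4.63, 6.25 and 5.03 FPKM in *Pctp*-/- mice. The highest MCD value was 6.25 and the lowest chow value 25.4. Its log2 fold change was -2.35 (SE 0.14, adjusted p = 1.3e-07) in WT and -2.27 (SE 0.14, adjusted p = 2.1e-07) in *Pctp*-/- mice. A predicted gene on the same strand, *Gm17108*, shares 476 of the 2644 bases of the main *Srd5a1* transcript, and its own FPKM was at most 0.213 in any library. *Nsun2*, which overlaps *Srd5a1* on the opposite strand, shares 0 exon bases with it.

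*Akr1d1* had 33.2, 36.9 and 30.1 FPKM in WT and 53.6, 37.3 and 47.0 FPKM in *Pctp*-/- mice on chow. On MCD it had 118, 136 and 137 FPKM in WT and 146, 142 and 160 FPKM in *Pctp*-/- mice. It was the only member of the set that rose past the threshold on MCD, by 1.94 on the log2 scale in WT (SE 0.13, adjusted p = 3.3e-07) and 1.69 in *Pctp*-/- mice (SE 0.13, adjusted p = 1.1e-06). Within each library, *Srd5a1* stood at 0.804 to 1.30 times the FPKM of *Akr1d1* in WT and 0.555 to 0.702 times in *Pctp*-/- mice on chow. On MCD it stood at 0.0380 to 0.0497 times in WT and 0.0315 to 0.0441 times in *Pctp*-/- mice. The mean log2 ratio fell by 4.35 with the diet, or 20.4-fold (two-sided exact permutation test within genotypes, p = 0.005, the smallest that 400 arrangements allow, adjusted p = 0.015). Because *Srd5a1* fell and *Akr1d1* rose without overlap, this p follows from the changes above and is no separate support. The mean log2 ratio was also lower by 0.47 in *Pctp*-/- than in WT mice (log2 difference -0.47, two-sided exact permutation test within diets, p = 0.02, adjusted p = 0.024), a 1.38-fold difference. Ratios within a library do not depend on how libraries are scaled to each other.

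**Figure D2:**
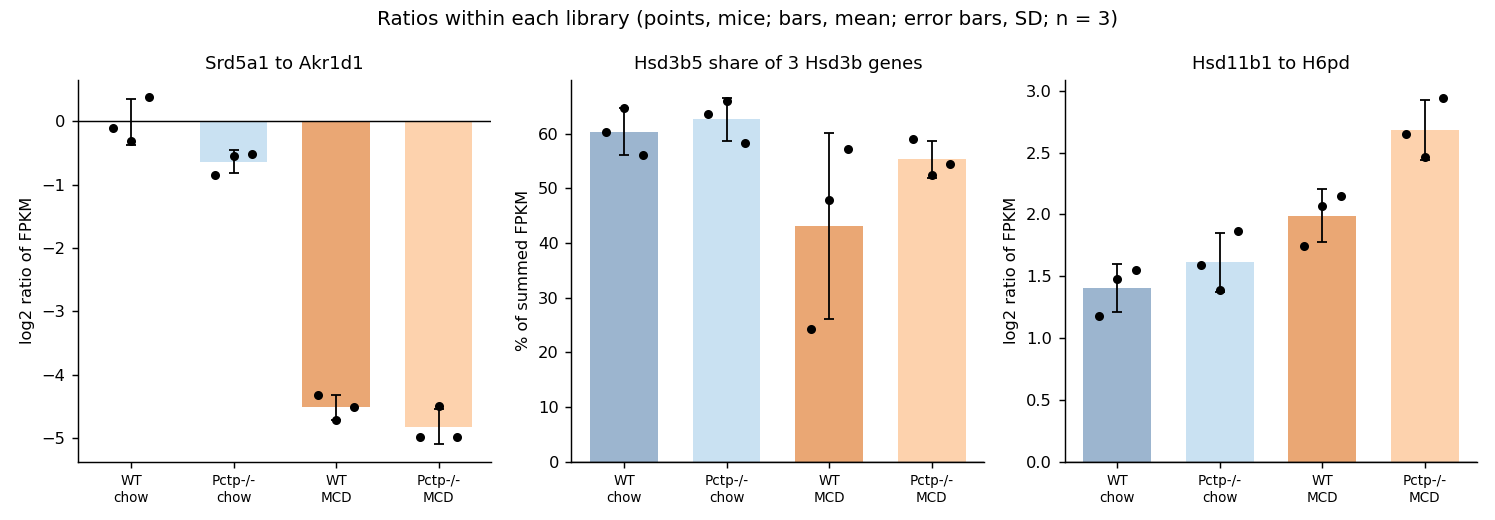
Ratios of FPKM within each library, by genotype and diet: the log2 ratio of *Srd5a1* to *Akr1d1*, the share of *Hsd3b5* in the summed FPKM of *Hsd3b2*, *Hsd3b3* and *Hsd3b5* in percent, and the log2 ratio of *Hsd11b1* to *H6pd*. Points are mice, bars are means and error bars are the SD of 3 mice. The first ratio separates the diets without overlap, the share has 1 low point at 24.3%, and the last is highest in *Pctp*-/- mice on MCD.

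Among enzymes of the 17β and 3α positions, *Hsd17b6* fell strongly on MCD, *Hsd17b2* fell slightly and no change was called for *Akr1c6*. *Hsd17b6* (ENSMUSG00000025396, chr10:127990936-128007611, minus strand) codes for an oxidative enzyme that can turn androstanediol back into dihydrotestosterone. Its FPKM was 235, 231 and 347 in WT and 197, 266 and 290 in *Pctp*-/- mice on chow. On MCD it was 63.4, 65.4 and 76.6 in WT and 70.1, 88.7 and 86.8 in *Pctp*-/- mice. The highest MCD value was 88.7 and the lowest chow value 197. On the log2 scale the change was -1.95 (SE 0.18, adjusted p = 3.4e-06) in WT and -1.59 (SE 0.18, adjusted p = 2.1e-05) in *Pctp*-/- mice. Of its coding windows of 100 bases, 17.5% occurred unchanged in retinol dehydrogenase genes such as *Rdh1*, *Rdh9* and *Rdh16*. Its value is therefore uncertain, and this share does not tell by how much.

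*Hsd17b2* (ENSMUSG00000031844, chr8:117701904-117759027, plus strand) codes for the enzyme that oxidizes estradiol and testosterone to weaker forms. Its FPKM in WT mice was 123, 152 and 123 on chow and 109, 112 and 109 on MCD. In *Pctp*-/- mice it was 120, 146 and 137 on chow and 106, 101 and 106 on MCD. The log2 fold change on MCD was -0.26 (SE 0.10, adjusted p = 0.0437) in WT and -0.36 (SE 0.10, adjusted p = 0.0111) in *Pctp*-/- mice. In WT mice the adjusted p was 0.0533 to 0.201 in 11 of 21 alternative fits, with the highest without WT chow replicate 2, where the change was -0.16. In *Pctp*-/- mice the call was lost without *Pctp*-/- chow replicate 2 (adjusted p = 0.0539).

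*Akr1c6* (ENSMUSG00000021210, chr13:4434306-4457877, plus strand), the mouse 17β-hydroxysteroid dehydrogenase type 5 that reduces androstenedione to testosterone, had the highest FPKM of the 10 genes in every group. On chow it had 555, 652 and 594 FPKM in WT and 584, 604 and 591 FPKM in *Pctp*-/- mice. On MCD it had 551, 553 and 629 FPKM in WT and 674, 649 and 678 FPKM in *Pctp*-/- mice. The log2 fold change on MCD was -0.05 (95% interval -0.25 to 0.14, adjusted p = 0.615) in WT and 0.17 (95% interval -0.02 to 0.36, adjusted p = 0.129) in *Pctp*-/- mice. After quantile normalization, the change in *Pctp*-/- mice was 0.44 and passed the threshold (adjusted p = 0.000256).

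*Hsd11b1* (ENSMUSG00000016194, chr1:193221634-193264075, minus strand), which regenerates corticosterone from 11-dehydrocorticosterone, was the only one of the 9 tested enzymes called between the genotypes. On the MCD diet its FPKM was 292, 344 and 368 in WT and 466, 492 and 616 in *Pctp*-/- mice. All 3 *Pctp*-/- values exceeded all 3 WT values, and the log2 difference was 0.64 (SE 0.12, adjusted p = 0.0349), with means of 335 ± 39.0 and 525 ± 80.1 FPKM (SD, n = 3). On chow it was 360, 375 and 412 in WT and 453, 390 and 448 in *Pctp*-/- mice, with a log2 difference of 0.17 (95% interval -0.10 to 0.44, adjusted p = 0.89). The call on MCD held in 12 of 21 alternative fits, with a log2 difference of 0.52 or more in each that left out a replicate. It was lost when any 1 of WT MCD replicates 1 and 2, *Pctp*-/- MCD replicates 2 and 3, WT chow replicates 2 and 3 and *Pctp*-/- chow replicate 3 was left out (adjusted p = 0.0516 to 0.145), with no filter on low genes (adjusted p = 0.0725) and with only the 6 MCD libraries in the fit (adjusted p = 0.109).

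With the diet, *Hsd11b1* did not pass the threshold in either genotype. The log2 fold change on MCD was -0.20 (95% interval -0.47 to 0.08, adjusted p = 0.199) in WT and 0.28 (95% interval 0.01 to 0.55, adjusted p = 0.0814) in *Pctp*-/- mice. After quantile normalization the change in *Pctp*-/- mice was 0.40 and passed (adjusted p = 0.015). The difference between these diet effects was 0.47 (SE 0.18, 95% interval 0.09 to 0.86), with an unadjusted p of 0.0195 and an adjusted p of 0.231.

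Its partner *H6pd*, the hexose-6-phosphate dehydrogenase that supplies NADPH to the enzyme inside the endoplasmic reticulum, fell on MCD in both genotypes. The mean FPKM was 145 ± 12.5 in WT and 141 ± 15.4 in *Pctp*-/- mice on chow (SD, n = 3), and 84.0 ± 2.66 and 81.3 ± 7.70 on MCD (SD, n = 3). *H6pd* changed by -0.77 and -0.79 on the log2 scale (adjusted p = 6.8e-05 and 7.8e-05). On chow, *Hsd11b1* stood at 2.27 to 2.93 times the FPKM of *H6pd* in WT and 2.62 to 3.64 times in *Pctp*-/- mice. On MCD it stood at 3.35 to 4.43 times in WT and 5.50 to 7.68 times in *Pctp*-/- mice. The mean log2 ratio was higher by 0.83 on MCD (two-sided exact permutation test within genotypes, p = 0.005, adjusted p = 0.015) and by 0.45 in *Pctp*-/- mice (two-sided exact permutation test within diets, p = 0.02, adjusted p = 0.024). It was 1.40 in WT and 1.61 in *Pctp*-/- mice on chow, and 1.99 and 2.69 on MCD. Between genotypes *H6pd* differed by only -0.04 on chow and -0.05 on MCD. The genotype p thus largely restates the *Hsd11b1* difference, and the diet p largely the fall of *H6pd*. Neither is separate support. Of 8 hepatocyte markers, 0 were called between the genotypes on MCD by limma, where the background was 0.818%. An unadjusted p under 0.05 was found for 3 of the 8 and for 2026 of all 12466 tested genes. The summed FPKM of the 8 markers, to which *Alb* contributed most, was 56786 to 64732 in WT and 72804 to 79101 in *Pctp*-/- mice. The part of this sum in the *Hsd11b1* difference was not tested.

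*Cyp17a1* (ENSMUSG00000003555, chr19:46667165-46673172, minus strand), the 17α-hydroxylase and 17,20-lyase of androgen synthesis, was barely expressed. Its FPKM was 0.139 to 1.10 over the 12 libraries with a mean of 0.488, under the minimum mean of 0.5 for a test. In a fit with no minimum, its log2 difference was 0.09 to 0.17 in the comparisons of diets and genotypes, and no adjusted p was under 0.05. Most marker genes of steroid production in adrenal cortex and gonads were low too. Of 11 such genes, *Cyp11b1*, *Cyp19a1* and *Hsd3b6* were listed at 0 in every library, *Cyp11a1*, the first enzyme of the pathway, reached 0.0145 FPKM in a single library, and only *Cyp21a1* passed the minimum, with 0.268 to 8.37 FPKM.

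Over the set as a whole, more of the enzymes were called for the diet than for the genotype. On MCD, 7 of the 9 tested genes passed in WT mice, *Akr1d1* higher and 6 lower, against backgrounds of 34.5% of all tested genes called higher and 22.5% called lower. In *Pctp*-/- mice the same 7 genes passed in the same directions, against backgrounds of 26.0% higher and 24.4% lower. The median log2 fold change of the 9 genes was -0.48 in WT and -0.53 in *Pctp*-/- mice, beside 0.11 and 0.04 over all tested genes. The median absolute change was 1.94 and 1.59, beside 0.42 and 0.37. Scaling the libraries by median of ratios brought the median of all genes in WT mice from 0.11 to 0.0062 and left the 7 calls in each genotype.

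**Figure D3:**
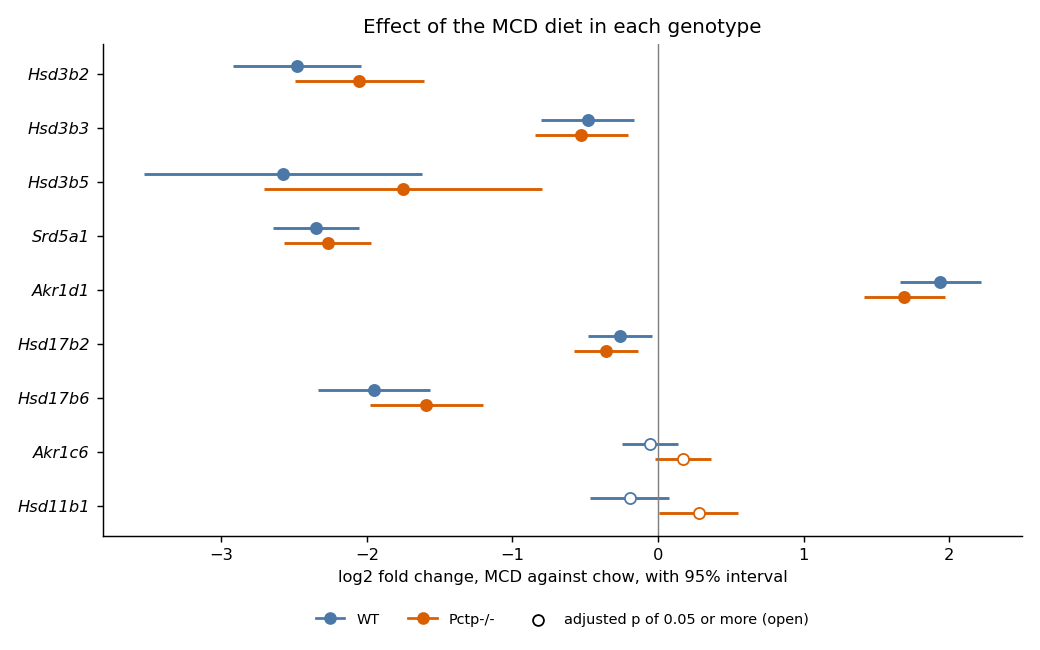
Log2 fold change on the log2(FPKM + 1) scale between MCD and chow for the 9 tested enzymes, in WT and in *Pctp*-/- mice. Points are estimates from limma, lines are 95% intervals, and open points have an adjusted p of 0.05 or more. *Akr1d1* lies to the right of 0, 6 genes lie to the left, and the open points belong to *Akr1c6* and *Hsd11b1*.

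Between genotypes on chow, 0 of the 9 tested genes were called by limma, where the background was 0.136% of all tested genes, and 1 had an unadjusted p under 0.05. That gene was *Akr1d1*, at 33.4 ± 3.42 FPKM in WT and 45.9 ± 8.18 FPKM in *Pctp*-/- mice (SD, n = 3), with a log2 difference of 0.44 (95% interval 0.16 to 0.72) and an adjusted p of 0.352. On MCD, 1 of 9 was called, *Hsd11b1*, against a background of 0.818%. The groups of 4 of the 9 did not overlap on MCD, where 26.6% of all tested genes had groups that did not overlap. They were *Hsd11b1*, *Akr1c6* and *Akr1d1*, higher in *Pctp*-/- mice, and *Hsd17b2*, lower. For *Akr1c6* the log2 difference was 0.21 (95% interval 0.02 to 0.40, adjusted p = 0.268), and it passed after quantile normalization (0.38, adjusted p = 0.0289). For *Hsd17b2* the difference of -0.07 became 0.04 after median-of-ratios scaling. Over all genes, 37 were called higher and 65 lower in *Pctp*-/- mice on MCD. The genes called after quantile normalization were 69 higher and 41 lower, and those called after median-of-ratios scaling were 34 higher and 35 lower.

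**Figure D4:**
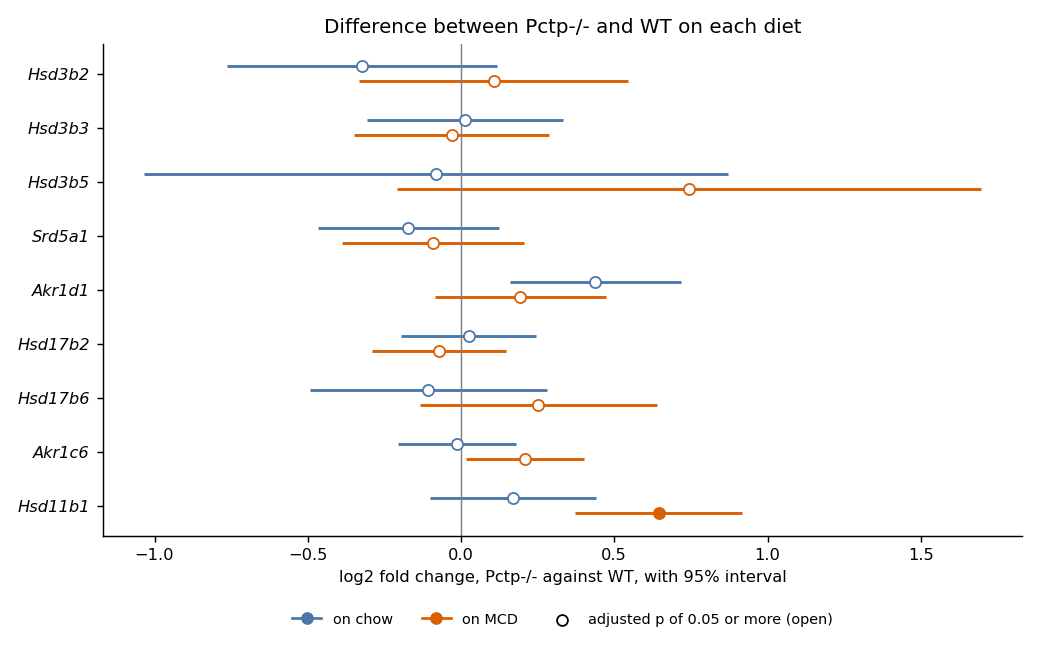
Log2 difference on the log2(FPKM + 1) scale between *Pctp*-/- and WT mice for the 9 tested enzymes, on chow and on MCD. Points are estimates from limma, lines are 95% intervals, and the filled point has an adjusted p under 0.05. The filled point is *Hsd11b1* on MCD at 0.64, and the interval of *Hsd3b5* is the widest.

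The diet effects were also compared between the genotypes. By limma, 0 of the 9 genes had a difference past the threshold, where the background was 0.0963% of all tested genes, and *Hsd11b1* alone had an unadjusted p under 0.05. The intervals leave room for sizeable differences. For *Hsd3b5* the difference was 0.82 (95% interval -0.52 to 2.17), for *Hsd3b2* 0.43 (-0.19 to 1.05) and for *Hsd17b6* 0.36 (-0.19 to 0.91). For *Srd5a1* it was 0.08 (-0.34 to 0.50) and for *Akr1d1* -0.24 (-0.64 to 0.15).

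Genes around these enzymes were counted in lists, to be read against all tested genes, of which 34.5% were higher and 22.5% lower on MCD in WT mice and 26.0% and 24.4% in *Pctp*-/- mice. Of 23 relatives from the same enzyme families found in the table, 14 were tested, and on MCD 10 passed in WT mice, 5 higher and 5 lower, and 7 in *Pctp*-/- mice, 2 higher and 5 lower. Their median log2 fold change was 0.12 and 0.10, beside 0.11 and 0.04 over all tested genes. *Akr1c20*, an aldo-keto reductase related to *Akr1c6*, had the largest rise, by 1.18 on the log2 scale in each genotype, from 53.9 ± 5.91 to 123 ± 13.3 FPKM in WT mice (SD, n = 3). *Hsd17b10*, a mitochondrial dehydrogenase, fell by 0.71 in WT mice, and its mean went from 114 to 70.3 FPKM in *Pctp*-/- mice. *Hsd17b4*, a peroxisomal one, fell by 0.70 in *Pctp*-/- mice, and its mean went from 193 to 118 FPKM in WT mice. *Srd5a2*, the second 5α-reductase, was at 0.933 to 3.38 FPKM and fell by 0.85 in *Pctp*-/- mice. In WT mice its mean was 2.47 FPKM on chow and 1.37 on MCD.

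Of 10 genes that supply electrons or NADPH to steroid enzymes, 5 passed in WT mice, 2 higher and 3 lower, and 8 in *Pctp*-/- mice, 2 higher and 6 lower, with a median of -0.17 and -0.51. The 5 of 10 in WT mice was no more than the share over all tested genes. *Pgd*, an enzyme of the pentose phosphate pathway, rose by 1.87 in WT and 0.97 in *Pctp*-/- mice. *Cyb5r3*, which passes electrons to cytochrome b5, fell by 1.06 and fell by 0.99. *Me1* fell by 0.79 in *Pctp*-/- mice, from a mean of 46.1 to 26.6 FPKM, and its mean in WT mice was 45.5 FPKM on chow and 40.9 on MCD.

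Enzymes that conjugate or hydroxylate steroids shifted in both directions. Of 14 tested, 12 passed on MCD in each genotype, 6 higher and 6 lower, and the median was -0.29 in WT and -0.09 in *Pctp*-/- mice. *Sult1e1*, the estrogen sulfotransferase, went from 0.0959 ± 0.0265 to 186 ± 23.9 FPKM in WT mice (SD, n = 3). In *Pctp*-/- mice its mean was 0.0605 FPKM on chow and 152 on MCD. *Sult2a6*, a hydroxysteroid sulfotransferase, was listed at 0 in every chow library. *Sult1e1* and *Sult2a6* thus met the minimum mean for a test through the MCD libraries alone. Their rises, and with them the count called higher, may be fixed in part by this filter. On MCD *Sult2a6* reached 23.7 ± 5.55 FPKM in WT and 49.3 ± 3.62 FPKM in *Pctp*-/- mice (SD, n = 3), a log2 difference of 1.05 (limma, adjusted p = 0.00419). The chow libraries at 0 add no spread to the estimate that all libraries share, so this p may be too small. *Cyp7b1*, which hydroxylates oxysterols and androgens, fell by 3.06 in WT and fell by 2.51 in *Pctp*-/- mice. *Sult2a6* has close relatives whose reads the counting could have split.

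Of 10 tested carriers and receptors of steroids, 5 passed on MCD in WT mice, 2 higher and 3 lower, and 7 in *Pctp*-/- mice, 5 higher and 2 lower, with a median of 0.02 and 0.31. The count in WT mice was again no more than the share over all tested genes. *Esr1*, the estrogen receptor, rose by 0.90 in WT mice, and its mean in *Pctp*-/- mice was 2.60 FPKM on chow and 4.59 on MCD. *Pgrmc1*, a heme-binding membrane protein, fell by 0.61 in WT and fell by 1.00 in *Pctp*-/- mice. *Alb*, the most abundant carrier, rose by 0.66 and 1.02. *Fkbp5*, a chaperone partner of the glucocorticoid receptor, rose by 2.29 in *Pctp*-/- mice, from a low and variable chow level. Its FPKM there was 6.48 ± 4.60 on chow and 32.1 ± 8.13 on MCD, beside 20.5 ± 9.76 and 22.2 ± 6.66 in WT mice (SD, n = 3). Between genotypes on chow, limma called 0 of the 14, 10, 14 and 10 tested genes of these 4 lists, where the background was 0.136%. It gave 3 of them an unadjusted p under 0.05, as it did for 870 of all 12466 tested genes. On MCD 2 were called, *Sult2a6*, with the limit given above, and the glucuronosyltransferase *Ugt2b34*, against a background of 0.818%. On that diet *Ugt2b34* was lower by 0.42 in *Pctp*-/- than in WT mice, at means of 143 and 192 FPKM.

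Genes known to differ between male and female mouse liver moved on the same diet. Over all tested genes, 34.5% were called higher and 22.5% lower on MCD in WT mice, and 26.0% and 24.4% in *Pctp*-/- mice. Of 14 tested male-biased genes, 13 were lower on MCD in WT mice and 12 in *Pctp*-/- mice, and 0 were higher. The median log2 fold change was -2.04 in WT and -1.74 in *Pctp*-/- mice. The sum of their FPKM was 2458 to 4048 per library on chow, against 897 to 1297 on MCD. Of 18 female-biased genes found, 13 reached the minimum mean for a test. Of these, 12 were higher in each genotype and 0 lower, with a median of 2.35 and 4.64. The FPKM of all 18 summed to 4.56 to 19.4 per library on chow, against 380 to 875 on MCD. The minimum applied to the mean of all 12 libraries, so a gene near 0 on chow could pass through the MCD libraries alone. The count and the median may therefore be fixed in part by this filter. Between genotypes on MCD, 3 of the 13 female-biased genes were called higher in *Pctp*-/- mice and 0 of the 14 male-biased genes were called. The background was 0.818% of all tested genes. A gene near 0 on chow adds little spread from the chow libraries to the estimate that all 12 libraries share. The p of such a gene between genotypes on MCD may be too small, so the 3 calls carry this limit. *Cyp7b1* and *Nudt7* are among the male-biased genes.

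Markers of other liver cells were also read. Over all tested genes, 34.5% were called higher and 22.5% lower on MCD in WT mice, and 26.0% and 24.4% in *Pctp*-/- mice. On MCD, 6 of 7 tested macrophage markers were higher in WT and 3 of 7 in *Pctp*-/- mice, with a summed FPKM of 44.8 to 116 on chow and 214 to 473 on MCD. Of 7 stellate cell markers, 3 and 2 were higher, with sums of 8.11 to 20.02 on chow and 15.5 to 41.3 on MCD. Of 5 tested bile duct markers, 2 were higher in WT and 1 was lower in *Pctp*-/- mice, with sums of 10.7 to 19.5 on chow and 13.9 to 30.3 on MCD. Of 6 endothelial markers, 2 were higher in WT mice and 0 were called in *Pctp*-/- mice, with sums of 40.7 to 62.8 on chow and 49.0 to 67.7 on MCD. In WT mice the stellate cell, bile duct and endothelial counts called higher were near the share over all tested genes. So was the stellate cell count in *Pctp*-/- mice. No marker of these lists was at 0 in every library. Of 8 hepatocyte markers, 1 was higher and 4 lower in WT mice, and 2 were higher and 3 lower in *Pctp*-/- mice, with sums of 43985 to 49445 on chow and 56786 to 79101 on MCD. The part of these cell types in the diet effects on the steroid enzymes was not tested.

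Finally, the genes most alike in pattern were listed by Pearson's r of log2(FPKM + 1) over the 12 libraries, where read quality went with the diet. *Hsd3b2* was most like *Nudt7* (r = 0.992), *Hsd17b6* most like *Fbxo31* (0.994), *Srd5a1* most like *Abhd3* (0.993) and *Akr1d1* most like *Efcab2* (0.987) and *Cyp2b9* (0.986). *Hsd3b5* was most like *Mup21* (0.965), *Hsd3b3* most like *Hba-a1* (0.964), *Hsd17b2* most like *Fam161a* (0.950), *Akr1c6* most like *Fggy* (0.913) and *Hsd11b1* most like *Agt* (0.869). After the group means were removed, r was 0.954 for *Hsd3b2* with *Nudt7* and 0.545 for *Srd5a1* with *Abhd3*. Among the enzymes themselves, *Srd5a1* and *Hsd17b6* had r = 0.976 over the 12 libraries and 0.621 after the group means were removed, while *Srd5a1* and *Akr1d1* had r = -0.975 and -0.06. For *Hsd3b2* and *Srd5a1*, which both fell on MCD, r was 0.949 and changed sign to -0.824 after the group means were removed.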

How the data were processed

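Liver RNA of 12 mice was measured by RNA-seq. The table deposited by the authors gives 1 FPKM value for each gene in each library. Sequencing was done by Novogene, the build was mm10 according to the submitters' processing notes, and the aligner, the counter, the annotation and the strand setting are not given in the sources used here. A second deposited table holds read counts and percentages per library and served only for depth. With no count per gene, the Wald test named in the methods could not be run. Instead limma 3.58.1 in R 4.3.3 estimated the 4 group means of log2(FPKM + 1), with a mean-variance trend and 1 spread estimated from the 12 libraries. The 12466 of 35275 genes whose mean FPKM reached 0.5 were tested two-sided. A gene was called when its p, adjusted by Benjamini-Hochberg over those genes, was under 0.05, whatever its fold change. Each library is a different mouse, and replicate numbers were not used as a block. Ratios were tested by exact permutation.

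The enzymes and gene lists were chosen with earlier results of these data known. Named beside the 10 enzymes are *H6pd*, the 3 largest changes among called genes of a list in each comparison and, as genes most alike, up to 2 per enzyme. Positions and coding sequence come from GENCODE M21 (34490 identifiers matched) and promoters from RefSeq. Alternatives were the pseudocount, the filter, the scaling, the block, the trend, robust fitting, the libraries in the fit and leaving out each replicate. Figures were drawn with matplotlib 3.10.9.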

Additional observations from a re-analysis of the deposited data

How the results depend on the processing

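The 6 falls and the rise on MCD named above kept their direction in all 21 alternative fits in each genotype, and *Hsd3b2*, *Hsd3b5*, *Hsd17b6*, *Srd5a1* and *Akr1d1* also kept their calls. Of 936 values of single enzymes under an alternative, 880 kept direction and side of the threshold, 22 lost a call, 4 gained one and 30 changed sign; the causes were not tested. The number of enzymes called between genotypes on MCD was 1 and became 0 with no filter or with only the 6 libraries of the comparison, 2 after quantile normalization, and 0 to 1 with a replicate left out. The number of all genes called ranged from 7 to 34 between genotypes on chow, from 17 to 173 on MCD, and from 0 to 60 for the difference of diet effects, with the most on chow without WT chow replicate 1, on MCD without WT MCD replicate 3 and for the difference without either of these 2, and the fewest with only the 6 libraries of a comparison or, for the difference, without *Pctp*-/- MCD replicate 2. It ranged from 4448 to 7702 for the diet in WT and from 4047 to 6589 in *Pctp*-/- mice, both lowest with a minimum mean of 5 FPKM. For the difference, the calls were 5 higher and 7 lower. Quantile normalization called 13 genes higher and 5 lower, and median-of-ratios scaling called 5 and 1.

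Replicate numbers number different mice. The deviations of same-numbered mice from their group means correlated at -0.0972 to 0.199, with no comparison above 0.1 in all 3 numbers. A replicate block changed the call of *Hsd11b1* for the diet in *Pctp*-/- mice (0.28, adjusted p = 0.0392) and raised the number of all genes called from 17 to 32 on chow and from 12 to 59 for the difference. With the block, the genotype differences of -0.47 for *Srd5a1* to *Akr1d1* and 0.45 for *Hsd11b1* to *H6pd* and the diet difference of -12.3 points for the *Hsd3b5* share had p = 0.0625 (exact sign exchange, smallest possible p = 0.03125), and it changed no other call. With a replicate left out, the share differed by -15.8 to -7.60 points with the diet and by 2.53 to 10.8 points between genotypes.

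All sign changes were in uncalled results. After quantile normalization, the log2 difference between genotypes on chow was -0.00651 for *Hsd3b3* and -0.0131 for *Hsd17b2*, that on MCD was 0.0739 for *Hsd3b3* and 0.0109 for *Srd5a1*, the diet effect in WT was 0.0475 for *Akr1c6* and the difference of diet effects was 0.0804 for *Hsd3b3*. After median-of-ratios scaling, the difference between genotypes on MCD was 0.0736 for *Hsd3b3*, 0.0361 for *Hsd17b2* and 0.000157 for *Srd5a1*, and the difference of diet effects was 0.0519 for *Hsd3b3* and 0.00183 for *Hsd17b2*. With a replicate left out, the difference on chow ranged from -0.16 to 0.15 for *Hsd3b3*, -0.35 to 0.21 for *Hsd3b5*, -0.0360 to 0.127 for *Hsd17b2*, -0.22 to 0.0838 for *Hsd17b6* and -0.0693 to 0.0471 for *Akr1c6*. That on MCD ranged from -0.0887 to 0.0394 for *Hsd3b3*, the diet effect in WT from -0.12 to 0.0062 for *Akr1c6*, and the difference of diet effects from -0.18 to 0.13 for *Hsd3b3* and from -0.0414 to 0.163 for *Srd5a1*. Depth per gene is unknown from FPKM, so no interval for counting error is given.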
